A study of Rattus norvegicus with 9 samples.

Results

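The comparison described here is between replicate preparations and not between cell types: the 3 arrays of a rat oligodendrocyte progenitor series that are numbered III were set against the 3 numbered II. All were hybridised with RNA of cultures from newborn rats, with no treatment named in the labels. Cells had been sorted by surface antigens into 3 populations, and each population has 1 array in each set. By the array titles, which describe surface antigens, the O4 population carried O4 and lacked NG2, and the NG2/A2B5 population carried both antigens of its name. The titles of the NG2 population name NG2 and do not mention A2B5 or O4. Arrays were paired by population, which gives each gene 3 differences, III minus II, with 1 for each population. The arrays were chosen by the numeral in their titles, which took 6 of the 9 arrays of the series. Set I served to estimate the spread and for values and comparisons given side by side. Genes were kept where their mean intensity over the 9 arrays was over 0.5, and 8911 of 12167 genes with a value passed this filter and had a value on every array. Just inside the filter lay Osbpl2 at a mean of 0.5003 and a difference of -0.07 on the log2 scale, and just outside it lay Sgpl1 at 0.4994 and -0.59.

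The series text speaks of 3 cultures, and no label says which numeral belongs to which culture. Each p-value below therefore measures the spread between these arrays, which may be technical, and culture, RNA amplification and hybridisation cannot be told apart as sources of a set difference. Neither the strain nor the number of animals behind a culture was given in the sources used here. All RNA had passed through a pair of amplification rounds per the labels, and all arrays had nearly the same median intensity, between 1.05 and 1.07. In bulk RNA of sorted cells, fewer cells of a type and less RNA per cell cannot be told apart.

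Oligodendrocyte progenitors divide, recognised by the NG2 proteoglycan and by gangliosides that the A2B5 antibody binds, and then leave the cell cycle, take up O4 sulfatides and make myelin lipids and proteins. Growth and protein synthesis in such cells draw on ribosome assembly, amino acid supply and tRNA charging. When amino acids run short, or proteins misfold in the endoplasmic reticulum, kinases of the integrated stress response phosphorylate a translation initiation factor, and the transcription factor ATF4 then raises genes for amino acid transport and synthesis, tRNA synthetases and stress regulators.

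The labels were checked against markers. Cspg4, which encodes NG2, did not follow the sort at the RNA level. In sets I, II and III it read 125, 92.1 and 154 in the O4 population labelled as NG2-negative, 104, 127 and 185 in NG2/A2B5 and 135, 146 and 166 in NG2 cells, so that the populations overlapped. Over the 9 arrays the lineage factor Sox10 read between 29.7 and 47.6, Olig1 between 6.32 and 9.24, and the early myelin enzyme Cnp between 155 and 265. The probes of the progenitor receptor Pdgfra (0.213 to 0.917), of Olig2 (0.292 to 0.709) and of the myelin protein Mbp (0.0581 to 0.371) read near the low end of the arrays. Markers of other cells were mixed. Some were near the bottom: C1qa of microglia lay between 0.0813 and 0.138, Snap25 of neurons between 0.0309 and 0.181, Dcn of fibroblasts between 0.0676 and 0.272, and Gfap of astrocytes between 0.113 and 0.596. Others were above the array median: Cd68 (3.95 to 6.93) and Itgam (3.88 to 7.94) of microglia, S100b (5.94 to 8.29) and Aqp4 (1.1 to 1.7) of astrocytes, Dcx (4.04 to 21.4) of young neurons, and Col1a1 (4.92 to 16.6) and Col1a2 (12.9 to 17.6) of fibroblasts. Probe signals do not rank genes by their RNA.

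Between sets III and II, 1760 genes passed the test (19.8% of the 8911), of which 764 were higher in III (8.57%) and 996 were lower (11.2%). The test was a linear model with set and population, limma's moderated statistic and a Benjamini-Hochberg adjusted p under 0.05. Of the gene lists, integrated stress response (15 of 22 members), tRNA synthetase (12 of 14), ribosome assembly (23 of 29) and DNA replication genes (21 of 28) had most members lower in III. So did p53 target and cell cycle exit genes (9 of 15, with 2 higher). Of premyelinating genes 7 of 12, of myelin genes 9 of 18 and of progenitor genes 10 of 21 were higher. The counts include Noc3l (ribosome assembly) and Tyms (DNA replication), which passed the intensity filter through set II alone. They also include Bmp4 (premyelinating), which passed it through set III alone. At an unadjusted p under 0.05, 3070 genes passed (34.5%). The median size among called genes was 0.735 on the log2 scale. Differences over 1, a doubling, were called for 205 genes higher and 187 lower in III, and differences over 2 for 21 and 19. The 3 arrays of III lay wholly above those of II for 1141 genes (12.8%) and wholly below for 1692 (19%), which is 31.8% of genes without overlap. The median over all genes was -0.07, and by population it was 0.02 for O4, -0.05 for NG2/A2B5 and -0.19 for NG2 cells.

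The population pairs share no array. Of all genes, 4741 had the same sign in the 3 pairs (53.2%). Across genes the Pearson correlation of the differences was 0.555 between O4 and NG2/A2B5, 0.604 between O4 and NG2 and 0.640 between NG2/A2B5 and NG2, given as a description since genes are not independent replicates. In the median gene the set accounted for 40.5% of the variance over the 9 arrays and the sorted population for 20.9%. Noise alone would also give set and population a share each, and the size of that share was not estimated. The percentages therefore place set beside population and are no evidence by themselves of an effect of either. More variance lay with the set than with the population for 5743 genes (64.4%).

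**Figure D1:**
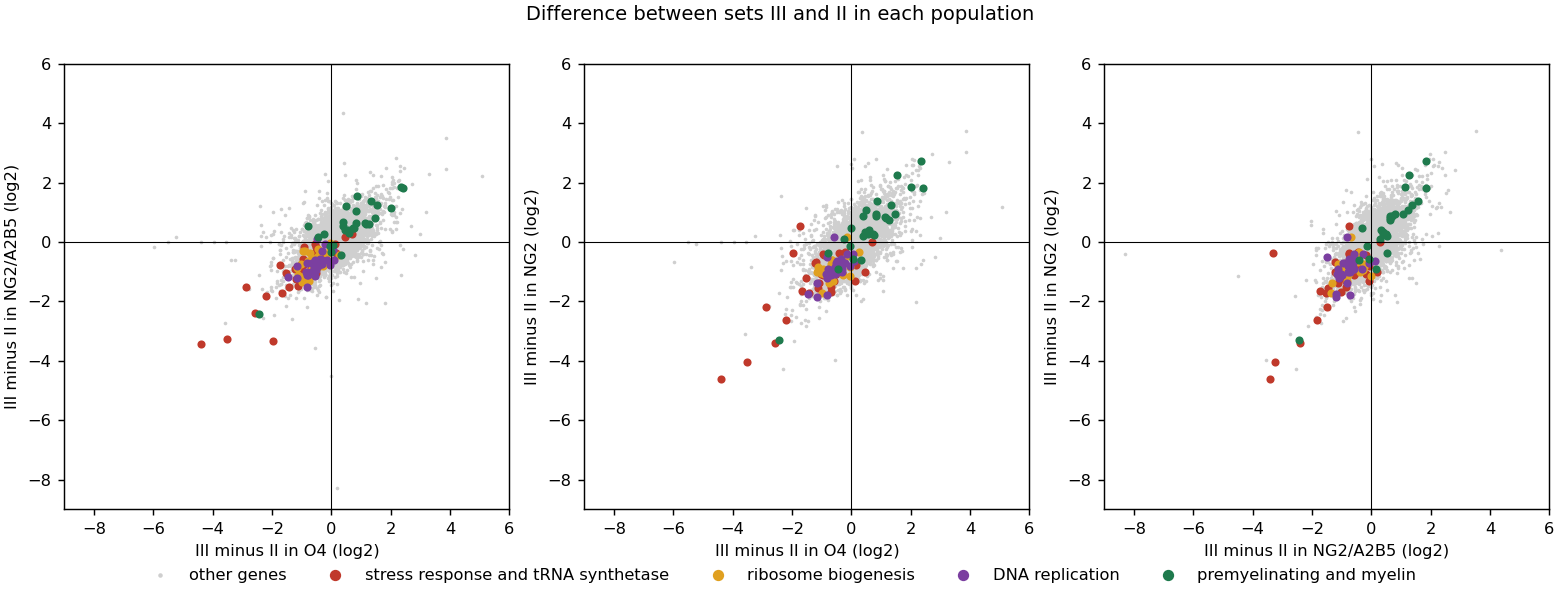
Each point is a gene; the axes give its III minus II difference (log2) in 2 of the 3 populations, and colours mark members of gene lists. Stress response, tRNA synthetase, ribosome biogenesis and DNA replication genes lie mostly in the lower left of each panel and premyelinating and myelin genes mostly in the upper right, with r of 0.555, 0.604 and 0.640 over all genes; the gene far to the low end in NG2/A2B5 (-8.29) is Acsl3.

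Set I had its own distance from each. Between III and I, 224 genes were called (2.51%), 105 higher (1.18%) and 119 lower in III (1.34%). Between II and I, 742 were called (8.33%), 381 higher (4.28%) and 361 lower in II (4.05%). These comparisons share arrays with III minus II and with each other. Counts and differences against set I are therefore given below only to place the sets, and not as separate evidence.

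The largest gene difference was that of Nupr1, a small chromatin-associated stress protein. Its intensity in the O4, NG2/A2B5 and NG2 cells was 11.6, 8.35 and 21.1 in set II and 0.557, 0.774 and 0.859 in set III. Every array of II was far above every array of III, and set I lay between them at 1.84, 1.59 and 2.44. The difference was -4.14 ± 0.21 (adjusted p 6.2e-06), which is 17.7-fold higher in II. Here and below, ± gives the moderated SE of the fit over the 9 arrays and not the spread of the 3 pairs. Slc7a11, the cystine importer that feeds glutathione synthesis, read 25.4, 21.8 and 31.7 in II and 2.24, 2.30 and 1.92 in III. The 3 populations within each set lay close together, and the difference was -3.60 ± 0.24 (adjusted p 2.75e-05). Trib3, a pseudokinase that binds ATF4, fell from 6.88, 4.56 and 3.34 in II to 1.16, 0.871 and 0.317 in III, a difference of -2.79 ± 0.30 (adjusted p 0.000234). Its NG2 array of III was the lowest of the 9, and the sets did not overlap.

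Of the 22 integrated stress response genes tested, 15 were lower in III and none was higher, with a list median of -0.93 beside -0.07 over all genes. The regulators came first. Atf4 itself read 83.6, 71.6 and 81.0 in II against 43.6, 42.1 and 60.9 in III, so that II was above III in each population, by 0.70 ± 0.15 (adjusted p 0.01). Atf5, its relative among bZIP factors, read 41.4, 23.0 and 28.8 against 5.64, 8.09 and 6.33, a difference of -2.19 (adjusted p 0.000184). Ddit3, which encodes the factor CHOP, differed by -0.95 (0.00281) and the mTOR inhibitor Sesn2 by -1.88 (0.0195). Sesn2 was uneven: the pair differences were -1.96 for O4, -3.33 for NG2/A2B5 and -0.36 for NG2 cells. Cebpg, a partner of ATF4 in DNA binding, was the member with a positive value, 0.33, and did not pass (adjusted p 0.27).

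Enzymes and transporters of amino acids followed. Mthfd2, a mitochondrial folate enzyme, read 31.0, 20.3 and 34.6 in II and 6.74, 5.71 and 5.56 in III, a difference of -2.22 ± 0.19 (adjusted p 4.98e-05). Its partner in serine and glycine metabolism, Shmt2, differed by -1.13 (0.00281) and the serine synthesis enzyme Psat1 by -1.03 (0.00369). Asparagine synthetase, Asns, read 14.2, 19.0 and 16.5 against 6.56, 6.84 and 5.63, a difference of -1.38 (adjusted p 0.000239), while its other probe over the minimum gave -0.24. Among transporters, Slc7a1 for cationic amino acids differed by -1.74 (0.000171), Slc1a4 for small neutral ones by -0.92 (0.00494), Slc7a5 by -0.64 (0.0285) and its heavy chain Slc3a2 by -0.57 (0.0227). Slc7a1 is not on the list and was chosen after its values were seen. Eif4ebp1, the brake on cap-dependent translation, differed by -1.56 (0.000197).

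In set II relative to set I, 13 of the 22 integrated stress response genes were higher, with a median of 0.92, and the median of III minus I was -0.27 with 2 members lower. The values of set II therefore stood apart from both other sets for most members. Atf4 in set I read 40.1, 34.2 and 47.3, close to set III, whereas Nupr1 and Slc7a11 in set I lay between the other sets, with III minus I at -1.42 (adjusted p 0.0092) and -1.40 (0.0163).

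The enzymes that charge tRNAs with amino acids were lower in III as a group. Of 14 tested, 12 were lower, none was higher and the median was -0.86, with medians of -0.91 for O4, -0.83 for NG2/A2B5 and -0.92 for NG2 cells. Cars1, for cysteine, read 20.7, 21.6 and 22.6 in II and 6.55, 6.49 and 7.29 in III. The populations were nearly equal within a set and the sets 3.19-fold apart (adjusted p 9.74e-05), with -1.06 at its other probe. Yars1, for tyrosine, differed by -1.56 (adjusted p 0.000104), Mars1 for methionine by -1.26 (0.000392), Iars1 for isoleucine by -1.04 (0.00287), Aars1 for alanine by -1.03 (0.00165) and Tars1 for threonine by -0.84 (0.00787). Hars1 (-0.51, adjusted p 0.0542) and Kars1 (-0.33, 0.164) did not pass. Xpot, the exportin that carries tRNAs out of the nucleus, is outside the list and differed by -1.33 (0.00148). Without array II of NG2, 7 synthetases were called. The median of III minus I over the synthetases was -0.13, and that of II minus I was 0.75 with 9 called higher in II.

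Promoter stretches are printed for some of the called stress response and synthetase genes that hold a motif, which most members of the first list did not. The motif searched was the C/EBP-ATF response element, TGATGNAAN, on both strands of the 250 bases before and 50 bases after the start in RefSeq's GRCr8 promoter table, each promoter counted once. It was found for 7 of the 13 synthetase genes with an entry (53.8%) and 3 of 20 integrated stress response genes (15%), beside 3.97% of all 33469 promoters and 156 of 7438 tested genes with an entry (2.10%). A match describes letters and not a bound site. Slc1a4, Nars1 and Tars1 were also called and had a match upstream of the start that is not printed. The matches of Cars1 and Yars1 lay after the start. Each line gives a stretch upstream of the start in the gene's direction, with the match in capitals as it stands there, read on the other strand. The Nupr1 stretch is at chr1:190645919-190645987 and Trib3 at chr3:161275534-161275585, both on the minus strand. Aars1 is at chr19:55908339-55908407 on the plus strand, and Mars1 at chr7:65023754-65023801 and Iars1 at chr17:15193653-15193707, both on the minus strand.
Nupr1: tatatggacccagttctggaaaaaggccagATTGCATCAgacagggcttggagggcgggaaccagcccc
Trib3: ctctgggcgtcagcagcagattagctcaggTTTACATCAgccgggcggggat
Aars1: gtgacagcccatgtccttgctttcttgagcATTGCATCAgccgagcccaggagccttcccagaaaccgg
Mars1: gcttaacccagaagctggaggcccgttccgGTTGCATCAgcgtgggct
Iars1: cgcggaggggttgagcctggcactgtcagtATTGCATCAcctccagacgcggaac

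Chaperones and folding enzymes of the endoplasmic reticulum passed in part. Of 16 genes of that stress response, 7 were lower in III, none was higher and the median was -0.49, with the lowest population median in NG2 cells (-0.77, against -0.31 in O4 and -0.34 in NG2/A2B5). Hspa5, the chaperone BiP, read 16.5, 22.9 and 25.2 in II and 10.3, 12.3 and 11.2 in III, a difference of -0.91 ± 0.16 (adjusted p 0.00308). Its sets did not overlap, but the O4 array of II was nearer to III than the other arrays of II were. Hyou1, another lumenal chaperone, differed by -1.09 (0.00258), with -0.13 at its other probe, and the calcium-binding chaperone Calr by -0.65 (0.0292). Canx, its membrane-bound relative, had a difference of -0.12 and did not pass (adjusted p 0.749). Without array II of NG2, array III of NG2 or array III of O4, 2 members were called, without array III of NG2/A2B5 3, and without array II of O4 or of NG2/A2B5 4.

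Cytosolic heat shock genes showed a like count, 7 of 19 lower in III, none higher, with a median of -0.42. Hsph1, a nucleotide exchange factor of the HSP70 system, read 82.7, 85.7 and 134 in II against 43.3, 47.1 and 57.4 in III, a difference of -1.01 (adjusted p 0.00136). Every II array was above every III array. The co-chaperone Ahsa1 differed by -0.64 (0.012) and Chordc1, which binds HSP90, by -0.67 (0.0126). With array II or III of NG2 left out, 1 and 2 heat shock members were called, and 4 without array III of NG2/A2B5.

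The endoplasmic reticulum stress response element, CCAAT and CCACG with 9 bases of any kind between them, was found for 5 of the 12 genes of that list with an entry (41.7%), beside 0.0657% of all promoters. Among tested genes with an entry it was found for 0.188%. The heat shock element searched, GAA, TTC and GAA with 2 bases of any kind between each, was found for 5 of 16 heat shock genes (31.2%), beside 0.798% of all and 0.471% of tested genes. Hspe1 and Hspd1, both among the 5, share a promoter stretch in opposite directions, so the same sites are counted for both. Both strands were searched, and matches on the 2 strands of 1 promoter can overlap for the heat shock element. The stretches of Hspa5 (chr3:38452943-38453015, plus strand) and Hsph1 (chr12:10427302-10427367, plus strand, match on the other strand) are shown because, of the called members with a match upstream of the start, each had the smallest adjusted p of its list.
Hspa5: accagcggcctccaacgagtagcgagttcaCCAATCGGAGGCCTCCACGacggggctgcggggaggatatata
Hsph1: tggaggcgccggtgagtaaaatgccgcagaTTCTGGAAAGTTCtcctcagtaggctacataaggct

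Ribosome assembly genes were lower in III, and most ribosomal protein genes did not pass. Of 29 nucleolar and assembly genes, 23 were lower in III, none was higher, and the median was -0.73, while of 37 cytosolic ribosomal protein genes 1 was lower, with a median of -0.23. Called or not, 34 of the 37 had a negative difference, and their median lay below the -0.07 of all genes. Noc3l, among the 23, passed the intensity filter through set II alone. Bop1, a processing factor of the large subunit, read 22.5, 25 and 19.7 in II and 11.7, 11.3 and 9.43 in III, a difference of -1.05 ± 0.15 (adjusted p 0.000975). The RNA polymerase I subunit Polr1a read 17.2, 16.7 and 15.1 against 7.93, 7.77 and 8.47, with the 3 populations of each set within a narrow range and a difference of -1.02 (0.00127). The nucleolar GTPase Gnl3 differed by -1.01 (0.00246), the rRNA methyltransferase Fbl by -0.92 (0.00363) and nucleolin, Ncl, by -0.63 (0.016). Tsr1, needed for the small subunit, differed by -1.15 (0.00149), and its other probes gave -1.08 and 0.48. Npm1, the abundant nucleolar chaperone, was at -0.41 and did not pass (adjusted p 0.196): it read 35.3, 32.7 and 46.2 in II and 33.9, 32.2 and 20.8 in III, so that its sets were close except in NG2 cells. Rpl34 was the called ribosomal protein gene (-0.81, adjusted p 0.00996). The difference between the lists was not tested. With 1 array left out, the ribosomal protein count ranged from 0 to 5, the 5 being without array II of NG2/A2B5. With array II or III of NG2 left out, 11 and 14 assembly genes were called.

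Genes of DNA replication were lower in III and most genes of mitosis did not pass. Of 28 replication genes, 21 were lower in III, none was higher and the median was -0.67. Tyms, among the 21, passed the intensity filter through set II alone. Of 36 mitosis genes, 3 were lower (Ttk -0.70, Melk -0.54 and Aurkb -0.50), none was higher, and the median was -0.22. That share, 8.33%, is below the 11.2% of all genes, and the difference from the replication list was not tested. Called or not, 31 of the 36 mitosis genes had a negative difference, and their median lay below the -0.07 of all genes. No mitosis gene passed without array II or III of NG2/A2B5 or of NG2, and 1 did without array III of O4. Ccne1, the cyclin of entry into S phase, read 8.56, 9.72 and 11.8 in II and 3.13, 4.28 and 3.46 in III, a difference of -1.47 ± 0.18 (adjusted p 0.000392), with -0.83 at its other probe. Rrm2, the regulated subunit of ribonucleotide reductase, differed by -1.40 (0.000644), and the sliding clamp Pcna by -1.10 (0.00506). Of the replicative helicase, Mcm5 read 19.7, 25.9 and 31.5 against 11.2, 12.1 and 13.5 (difference -1.05, adjusted p 0.00109) and Mcm6 106, 118 and 155 against 66.5, 58.9 and 71.5 (-0.93, 0.00483). In both, all arrays of II were above all of III. Mcm2, with readings below 1 on all 6 arrays, was at -0.21 (0.563), and the transcription factor E2f1 at -0.34 (0.207), with -0.84 at its other probe.

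Among the genes that did not pass were usual marks of dividing cells. Mki67 read 15.1, 25.6 and 29.6 in II and 18.5, 18.7 and 23.6 in III, with overlapping sets and a difference of -0.16 (95% interval -0.58 to 0.25; adjusted p 0.571). Top2a differed by -0.07 (interval -0.40 to 0.27), Cdk1 by -0.25 (-0.63 to 0.12) and Ccnb1 by -0.14 (-0.47 to 0.18). The D-type cyclins that respond to growth factors were lower in III: Ccnd2 read 110, 131 and 139 in II against 45.0, 48.7 and 40.9 in III (-1.49, adjusted p 0.000218, with -2.08 at its other probe) and Ccnd1 differed by -0.79 (0.0118). Ccnd2 was chosen after its values were seen. In set I the replication genes lay between the other sets, with a median of -0.44 for III minus I, 1 member called lower, and of 0.31 for II minus I, 5 called higher in II. The replication count fell to 10 without array II of NG2 or array III of NG2/A2B5, and to 12 without array III of NG2 or array II of NG2/A2B5.

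An E2F site, TTTNGCGC on either strand, was found in 9 of the 25 replication promoters with an entry (36%), beside 1.28% of all promoters and 2.34% of those of tested genes. Matches on both strands can overlap. Of the called members with a match on the gene's strand, Mcm5, Mcm7, Gins1 and Tyms are not printed. The stretches of Mcm6 (chr13:42404454-42404521, minus strand) and Uhrf1 (chr9:1223057-1223124, plus strand), a chromatin factor of newly replicated DNA with a difference of -0.93 (adjusted p 0.00342, with -0.50 at its other probe), are shown as called members with a match on the gene's strand.
Mcm6: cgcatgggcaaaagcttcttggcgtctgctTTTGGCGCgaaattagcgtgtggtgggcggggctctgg
Uhrf1: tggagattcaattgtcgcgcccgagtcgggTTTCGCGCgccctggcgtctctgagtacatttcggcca

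Targets of p53 and cell cycle inhibitors split. Of 15 tested, 9 were lower in III and 2 higher, with a median of -0.66. Cdkn1a, the inhibitor p21, read 360, 246 and 364 in II and 125, 83.6 and 92.0 in III, a difference of -1.69 ± 0.15 (adjusted p 7.89e-05), and set I read 128, 99.5 and 126, close to III. Ccng1 differed by -1.32 (0.000392), Phlda3 by -1.24 (0.000975), Gadd45a by -1.15 (0.00281) and Mdm2, the ligase that degrades p53, by -0.66 (0.0102). The members higher in III were Cdkn1c, the inhibitor p57 that rises as progenitors leave the cycle, and Sesn1. Cdkn1c read 7.14, 5.20 and 9.10 in II against 22.8, 13.0 and 16.1 in III (1.27, adjusted p 0.00254), without overlap. In II minus I, 8 list members were higher in II and 2 lower, and the median of III minus I was 0.28.

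**Figure D2:**
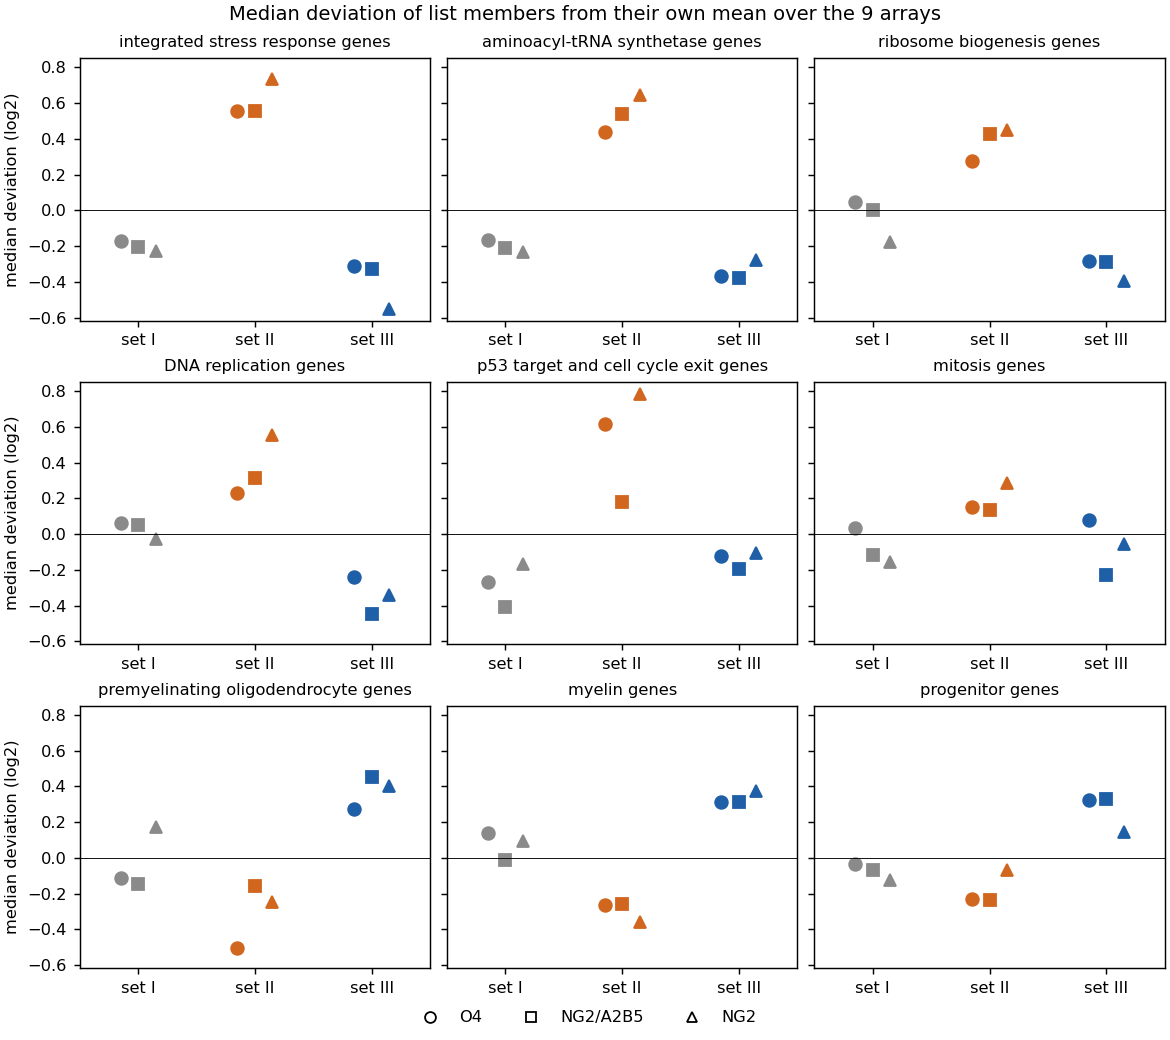
Each point is an array; the height is the median over a list's tested members of their log2 deviation from their own mean over the 9 arrays, with colour for the set and shape for the population. Set II stands above both other sets for stress response genes (0.55 to 0.74) and below them for myelin genes (-0.36 to -0.26), while for mitosis genes sets I and III overlap.

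Immediate early genes, which cells induce within minutes of a stimulus, were called on 14 of 27: 13 lower in III and Gadd45b higher, with a median of -0.57. The best known members of the family did not pass. Fos read 95.6, 91.0 and 125 in II and 122, 164 and 137 in III (0.44, adjusted p 0.0832), Egr1 differed by -0.02 (interval -0.37 to 0.34), Jun by -0.01 (-0.35 to 0.33) and Junb by 0.04 (-0.32 to 0.40). Egr2 read 18.2, 21.7 and 24.8 against 7.54, 8.85 and 8.77 (-1.35, adjusted p 0.000719) and Ier3, a regulator of survival signalling, 355, 258 and 440 against 150, 131 and 137 (-1.30, 0.000535). Both were lower on each III array than on any II array. Fosl1, which encodes FRA1, differed by -1.19 (0.00952), with -0.30 at its other probe. The count of members lower in III was 5 without array II of NG2, 6 without array III of NG2 and 8 without array II of O4. Among feedback genes of growth factor signalling, 4 of 13 were lower and 1 higher: Vgf, a secreted precursor induced by growth factors, differed by -1.90 (0.00015), Spry4 by -1.31 (0.000807) and Phlda1 by -1.06 (0.00104), while Spry1 differed by 0.81 (0.00808) with -0.32 at its other probe.

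Glucose use showed 1 large difference and several small ones. Hk2, the inducible hexokinase, read 5.79, 5.67 and 5.12 in II and 1.17, 0.973 and 0.264 in III, a difference of -3.04 ± 0.32 (adjusted p 0.000184). It was low on all III arrays and lowest in NG2 cells. Hk1, the constitutive hexokinase, read 78.5, 104 and 66.4 against 86.7, 90.5 and 70.7, a difference of 0.01 (interval -0.31 to 0.33), with -0.29 to 0.38 at its other probes. Of 20 glycolysis genes, 6 were lower in III, among them Pgam1 (-0.91, adjusted p 0.00273) and Ldha (-0.80, 0.00792). The 2 higher, Aldoc (1.27) and Pfkm (0.51), were 10% of the list, near the 8.57% of all genes. The Pfkm call was lost without any array of O4, array II or III of NG2/A2B5 or array II or III of NG2. The list median was -0.42, and the count lower in III was 2 without array II of NG2, 3 without array III of NG2 and 4 without array III of NG2/A2B5. In the opposite direction, Txnip, an inhibitor of glucose uptake whose gene responds to glucose metabolites, read 4.31, 3.25 and 1.80 in II and 18.5, 11.7 and 12.3 in III, a difference of 2.24 ± 0.18 (adjusted p 4.98e-05). Its relative Arrdc4 differed by 1.88 (0.000107). Both had no overlap between the sets, and Arrdc4 was chosen after its values were seen. Of 18 hypoxia response genes, 3 were lower (16.7%) and 1 higher (5.56%), beside 11.2% and 8.57% of all genes, with a median of 0.05. Ndrg1 (-2.72) and Vegfa (-0.74, with 0.24 at its other probe) thus stood beside Hif1a at 0.56 (adjusted p 0.0574). Without array III of O4, 1 hypoxia gene was lower.

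Glutathione and thioredoxin genes were lower in III for 8 of 22, with a median of -0.48 and none higher. Srxn1, which restores oxidised peroxiredoxins, read 1.62, 1.27 and 1.74 in II and 0.452, 0.493 and 0.660 in III (-1.53, adjusted p 0.000158). Haem oxygenase, Hmox1, differed by -1.16 (0.00751), Gclc, the first enzyme of glutathione synthesis, by -0.82 (0.00393) and Txnrd1 by -0.76 (0.00544). The cystine importer Slc7a11 is a member of this list and of the stress response list. Of 21 sterol synthesis genes, 5 were lower in III, none was higher and the median was -0.33. The 5 became 3 without array II or III of NG2/A2B5 or array II of NG2, and 2 without array III of NG2. Idi1 differed by -1.03 (0.00273), and Sc5d by -0.90 (0.00189) with 0.08 at its other probe. Of 13 fatty acid synthesis genes, Me1 was the called one (-1.13, 0.00295, with -0.70 at its other probe). Acsl3, which activates fatty acids, had a fitted difference of -2.83 that did not pass (adjusted p 0.163). It read between 70.4 and 109 on 8 arrays and -0.129 on array III of NG2/A2B5, so that its difference rests on that reading. Of 55 oxidative phosphorylation genes, Sdhd (-0.49) and Cyc1 (-0.46) were lower, none was higher and the median was -0.10, and neither call was kept when an array of II or III was left out.

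Tnc, the matrix glycoprotein tenascin-C, read 62.8, 41.6 and 42.4 in II and 5.25, 6.24 and 4.95 in III, a difference of -3.14 ± 0.20 (adjusted p 2.75e-05), with -3.49 at its other probe. Set I was nearer to II, at 34.1, 19.4 and 28.1, and III minus I was -2.28 (0.000349). Tnr, tenascin-R, which oligodendrocytes secrete, went the other way: 7.66, 5.20 and 3.28 in II against 27.2, 18.1 and 20 in III, a difference of 2.08 ± 0.20 (0.000104). Neither gene had overlapping sets. The integrin chain Itga6, part of a laminin receptor, differed by -2.17 (0.000107), and Itga9, part of a receptor that binds tenascin-C, by 2.21 (4.98e-05). Itga6 read 20.8, 22.0 and 40.1 in II against 7.13, 4.94 and 5.67 in III, and Itga9 4.50, 4.29 and 5.50 against 24.6, 24.3 and 17.5. The integrins were thus ordered oppositely on every array of the sets. Of 23 collagen and matrix genes, 3 were lower, Tnc, Timp1 (-1.27) and Col1a1 (-0.58), with a median of -0.24 and none higher, a share (13%) near the 11.2% of all genes.

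Other genes among the 15 with the largest lower values were of mixed function. Tnfrsf12a, the receptor of the cytokine TWEAK, read 29.1, 21.7 and 28.4 in II against 6.24, 6.53 and 5.25 in III (-2.13, adjusted p 4.98e-05), and set I was close to III. Fbn2, a microfibril protein, differed by -2.07 (7.16e-05), but its other probe gave 0.50. Serpinb7, a protease inhibitor, differed by -2.58 (0.000152), with -1.54 at its other probe, and Cimap1c by -2.08 (7.89e-05). For Lgals3, a lectin of phagocytic cells, all 3 arrays of III read under the floor of 0.25 to which low values were raised, at 0.111, 0.170 and 0.165, and II read 0.368, 2.94 and 3.97. Its fitted difference of -2.70 is set by the floor and was small in O4 (-0.56). Tenm4, a teneurin required for oligodendrocyte maturation in mice, also read under the floor on each III array and 1.72, 0.747 and 1.12 in II. Both genes passed the intensity filter through set II alone.

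**Figure D3:**
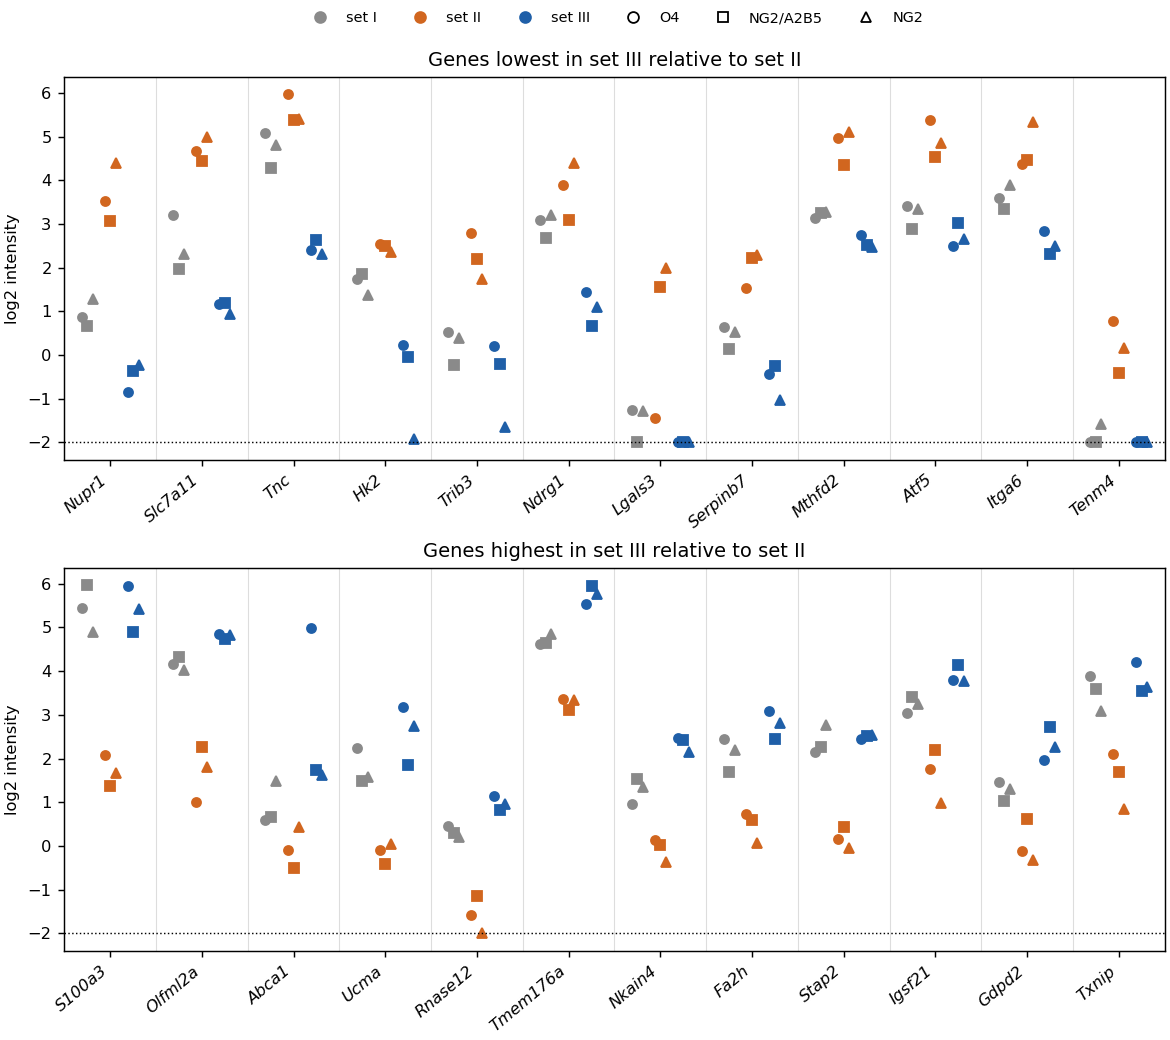
The log2 intensity of each array (points: colour for the set, shape for the population) is shown for the 12 named genes with the largest difference in each direction, with a dotted line at the floor of 0.25. The arrays of III lie below those of II for each gene of the upper panel, from Nupr1 (-4.14), and above for each gene of the lower panel, from S100a3 (3.71); Abca1 has 1 array of III far above the others.

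The genes higher in III included parts of the later oligodendrocyte programme. Of 12 premyelinating genes, 7 were higher in III, none was lower and the median was 0.64. Of 18 myelin genes, 9 were higher, 1 lower, and the median was 0.57. Myrf, the transcription factor that switches on myelin genes, read 8.58, 8.20 and 5.05 in II and 24.8, 19.6 and 24.4 in III, a difference of 1.69 ± 0.19 (adjusted p 0.000273). Fa2h, which hydroxylates the fatty acids of myelin galactolipids, read 1.65, 1.52 and 1.05 against 8.48, 5.43 and 7.04, a difference of 2.32 ± 0.20 (4.98e-05). Ugt8, which makes galactosylceramide, the precursor of the sulfatide that O4 binds, read 1.94, 3.96 and 2.88 against 4.30, 6.21 and 5.17 (0.88, adjusted p 0.0121). In each of the 3 genes III was above II in every population, including the NG2-sorted ones. The proteolipid plasmolipin, Pllp, differed by 1.27 (0.00132), the secreted lipocalin Apod by 1.32 (0.00148), the kinase Sgk2 by 1.67 (0.0004) and the tetraspanin Tspan2 by 0.88 (0.00471).

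Not all myelin genes shared that direction. Mag, a myelin adhesion protein, read 16.8, 11.8 and 16.6 in II and 12.4, 13.3 and 8.77 in III, with overlapping sets (-0.40, adjusted p 0.17), and Mobp was at -0.21 (0.537). Cnp was at 0.49 (adjusted p 0.083). Ndrg1, a gene of Schwann cell myelin that also sits on the hypoxia list, was lower in III at 2.73, 1.60 and 2.14 against 14.9, 8.57 and 21.1 in II (-2.72 ± 0.19, adjusted p 3.57e-05). The count of myelin genes higher in III was 7 to 9 when any 1 array was left out. That of premyelinating genes was 3 without array II of NG2.

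Of the premyelinating list, Bmp4, a signal made by differentiating oligodendrocytes, had the largest difference. In set II it read -0.0391, 0.0739 and 0.25, at or below the floor, and in III 1.32, 0.886 and 0.881, a fitted difference of 2.01 that the floor limits. It passed the intensity filter through set III alone, so its call is no support for the list. The calcium channel Itpr2 differed by 1.07 (0.00812), the tetraspanin Cd9 by 0.94 (0.00395), the axonal-contact protein Nfasc by 0.94 (0.00463), with -0.05, 0.39 and -0.09 at its other probes, the deacetylase Sirt2 by 0.79 (0.012) and the Wnt effector Tcf7l2 by 0.49 (0.0498). Bcas1, an early marker of this stage, read 224, 207 and 223 in II and 339, 258 and 296 in III, apart in every population, and narrowly missed the threshold (0.44, adjusted p 0.0524). Enpp6 was at 0.06 (adjusted p 0.865, interval -0.36 to 0.47). Enpp2, the enzyme autotaxin that oligodendrocytes secrete, is outside the lists and read 2.29, 4.21 and 2.11 against 10.9, 12.1 and 11.3 (2.07, 0.000558). It was chosen after its values were seen.

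Of 21 progenitor genes, 10 were higher in III and 1 lower, with a median of 0.49. Those higher were largely matrix proteins and receptors of the cell surface: Tnr, Matn4 (1.61, adjusted p 0.00983), the endocytic receptor Lrp1 (1.31, 0.000265), and the chondroitin sulfate proteoglycans Vcan (1.02, 0.00142), Bcan (0.74, 0.0348) and Cspg5 (0.55, 0.0292). Acan, another proteoglycan of that family and among the 15 largest, read 0.344, 0.314 and 0.112 in II and 1.23, 1.77 and 1.19 in III, a fitted difference of 2.19. It passed the intensity filter through set III alone, and 1 array of II was under the floor. Ncan was at 0.12 (adjusted p 0.704, interval -0.32 to 0.57). Of the transcription factors, Sox10 was higher by 0.46 (0.049) near the threshold. Olig2 was lower by 0.73, near the low end of the intensities and over the filter through set II alone, and Olig1 did not pass (-0.16, 0.566). Leaving out array II or III of O4 or array II of NG2 left 5 progenitor genes higher, and array III of NG2/A2B5 or of NG2 6.

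The antigens of the sort, read by their genes, gave Cspg4 at 92.1, 127 and 146 in II and 154, 185 and 166 in III (0.49 ± 0.18, adjusted p 0.0758), apart between the sets but not called. St8sia1, an enzyme of the ganglioside path behind A2B5, was at -0.55 (0.0834). The series title names refilin and filamin, which bundle and crosslink actin. Rflna, a refilin, read 15.2, 30.5 and 2.18 in II and 17.0, 35.5 and 4.78 in III. Its populations lay further apart than its sets, and the difference was 0.51 ± 0.33 (interval -0.23 to 1.24; adjusted p 0.31). The filamin Flna read 71.1, 68.0 and 83.2 against 56.2, 41.1 and 46.9 and was lower in III by 0.63 (0.0262), and Flnc was at 0.01 (interval -0.31 to 0.33). The Flna call was lost without array III of O4, array II or III of NG2/A2B5, or array II or III of NG2.

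The largest differences higher in III lay outside these programmes. S100a3, a calcium-binding S100 protein, read 4.24, 2.59 and 3.19 in II and 61.8, 29.7 and 42.7 in III, 13.1-fold higher (3.71 ± 0.28, adjusted p 3.57e-05). Set I read 43.7, 62.6 and 29.7, in the range of III. Olfml2a, an olfactomedin-like secreted protein, read 2.00, 4.77 and 3.50 against 29.0, 26.5 and 28.5 (3.12, 3.57e-05), with set I between them at 18, 20 and 16.2. Cebpd, a transcription factor of the C/EBP family, read 8.48, 8.66 and 10.9 against 37.0, 34.6 and 40.1 (2.00, 4.63e-05), and set I was close to III. Cebpd was chosen after its values were seen. Tmem176a, a membrane protein, differed by 2.47 (2.75e-05), Nkain4 by 2.41 (3.57e-05), Ucma by 2.76 (3.57e-05), Rnase12 by 2.55 (3.57e-05) and the adaptor Stap2 by 2.31 (4.98e-05). Igsf21, Gdpd2 and Sntg2 differed by 2.26, 2.25 and 2.22, the first with 0.31 at its other probe and the last over the filter through set III alone.

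Abca1, the cholesterol exporter, was less even. It read 0.936, 0.709 and 1.36 in II and 31.9, 3.32 and 3.07 in III, so that the O4 array of III stood far above the other 8 arrays. The pair differences were 5.09 for O4, 2.23 for NG2/A2B5 and 1.18 for NG2 cells, and the fitted difference was 2.83 ± 0.62 (adjusted p 0.0108), with 1.14 at its other probe. The call was lost without array II of O4 (adjusted p 0.0646). Pkp2, a plaque protein of cell junctions, had a different order of sets. It read 0.922, 0.909 and 1.24 in II, 4.41, 3.31 and 5.91 in III and 15, 15.1 and 12.6 in I. III minus II was 2.13 (9.74e-05) and III minus I was -1.68 (0.00262), so that the 3 sets were apart on every array. Pkp2 was chosen after its values were seen.

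Smaller groups were mixed, and their counts stand beside 8.57% of all genes higher and 11.2% lower. Of 18 interferon response genes, 5 were higher in III (27.8%) and none lower, with a median of 0.21. The 5 were Rsad2 (1.24, adjusted p 0.0085), Irf1 (0.98, 0.00593), Irf9 (0.92, 0.00497), Usp18 (0.84, 0.026) and Stat2. Without array II of NG2, array III of NG2 or array III of O4, 3 were called higher. Of 17 glucocorticoid and circadian genes, 5 were higher (29.4%) and 2 lower (11.8%, near the share of all genes), with a median of 0.21. The clock gene Per2 read 26.2, 26.1 and 26.6 in II and 52.0, 42.7 and 57.8 in III (0.94, 0.0022, with 0.48 at its other probe) and Klf9 differed by 0.76 (0.0109), whereas Fkbp5, a glucocorticoid-induced co-chaperone, differed by -0.97 (0.00395). Array III of O4 left out reduced the 5 to 1, and array II of NG2, array III of NG2 or array III of NG2/A2B5 reduced them to 2, and array II of O4 or of NG2/A2B5 to 3. Of 19 Notch, Wnt and BMP target genes, 5 were higher (26.3%) and 1 lower (5.26%, below the share of all genes), with a median of -0.02. Atoh8 differed by 1.23 (0.00321), the Notch ligand Dll3 by 1.03 (0.0106), Hes6 by 0.86 (0.0256) and the BMP target Id1 by 0.66 (0.0488), and Id3 did not pass (0.46, 0.177), with 0.94 at its other probe. Left-out arrays reduced those 5 to 1 (array II of NG2 or III of O4), 2 (array II of NG2/A2B5 or III of NG2) or 3 (array II of O4 or III of NG2/A2B5).

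Markers of other cell types are given beside these lists, and their part in the results was not tested. Of all genes, 8.57% were called higher and 11.2% lower, and whether the few marker calls exceed those shares was not tested. Of 19 microglial genes with a value, 4 were tested and none was called. Sums of intensity per array, here and for the lists that follow, are over all members with a value, tested or not. For microglia they were 16.8 to 21.4 in II and 15.9 to 16.6 in III. Cd68 differed by -0.21 (adjusted p 0.5) and Itgam by -0.29 (0.266). Of 9 astrocyte genes tested, 3 were higher in III (33.3%) and 2 lower (22.2%). The sums were 670.1 to 745.3 in II and 561.1 to 682.5 in III, most of it vimentin. Aldoc (1.27, 0.000612), Atp1b2 (1.28, 0.00149, with -0.23 at its other probe) and Clu (0.76, 0.0262) were higher, and Gja1 (-1.87) and Vim (-0.47, 0.0407) lower. Gja1 passed the filter through set II alone, and 1 array of III was under the floor. Of 11 neuronal genes, 2 were higher (18.2%) and 1 lower (9.09%), with sums of 199.3 to 230.8 and 170.2 to 243.7. Dcx, a microtubule protein of migrating young cells, read 5.83, 10.6 and 7.07 in II and 20, 21.4 and 19.9 in III (1.43, 0.0034) and Gap43 differed by 0.75 (0.00889), while the neuronal Snap25 stayed at or under 0.181 on every array.

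For vessel-associated cells the lists gave 1 gene each way, which is 20% of each list beside 8.57% higher and 11.2% lower of all genes. Of 5 endothelial genes, Vwf was higher in III (1.95, adjusted p 7.89e-05) and Esam lower (-1.11, 0.00785), with sums of 8.93 to 11.9 in II and 10.2 to 12.8 in III, and Cldn5 was at -0.22 (0.431). Of 5 pericyte and smooth muscle genes, Acta2 was lower (-0.73, over the filter through set II alone) and Myh11 higher (0.46, 0.049), with sums of 43.8 to 59.2 and 43.6 to 56.9. Of 6 fibroblast genes, 2 were lower (33.3%), Igfbp2 (-0.73, 0.0106) and Col1a1 (-0.58, 0.049), with sums of 32.7 to 41.1 and 29.7 to 34.3. Dcn and Lum stayed at or under 0.272 and 0.224. None of the 3 ependymal genes tested was called, Foxj1 stayed at or under 0.318, and the sums were 8.93 to 11.2 and 7.99 to 9.47. Of 8 Schwann cell genes, Pmp22 was higher (0.57, 0.0203) and Egr2 lower, with sums of 120.3 to 166.3 and 160.4 to 200.9. Each is 12.5% of that list, near the shares of all genes. Of the 2 sex-linked genes tested, Ddx3x was lower (-0.86, 0.00395) and Eif2s3 did not pass (-0.21, 0.423). With any 1 array left out, these marker counts changed by at most 1 in each direction, except that no fibroblast gene was called without array II of NG2.

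Some calls rested on the filter or on single arrays. Of the genes tested, 82 would have failed the intensity filter without set II, of which 32 were called, and 56 without set III, of which 17 were called. Asgr1, Bicd1 and Eif2d were in both groups, and none of them was called. Of 170 called genes examined one by one, 115 stayed called with any 1 of the 9 arrays left out. Sox10 and Tcf7l2 lost the call with each array left out, and Vim, Sdhd, Cyc1 and Myh11 with 8 of 9. Calls of Aurkb, Melk, Col1a1, Id1, Acta2, Clu, Cspg5, Hes6, Pmp22, Slc7a5, Bcan, Calr, Olig2, Ttk, Usp18, Stat2 and Pfkm were lost with 4 to 7 arrays. Those of Ahsa1, Fosl1, Ncl, Rpl34, Sesn2, Slc3a2, Ugt8, Ccnd1, Chordc1, Dll3, Igfbp2, Lgals3, Mdm2 and Sirt2 were lost with 2 or 3. A single array ended the call of Matn4, Gap43, Itpr2, Ldha and Tars1 (array II of NG2) and of Atf4, Klf9 and Vegfa (array III of O4), with adjusted p between 0.051 and 0.0656.

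**Figure D4:**
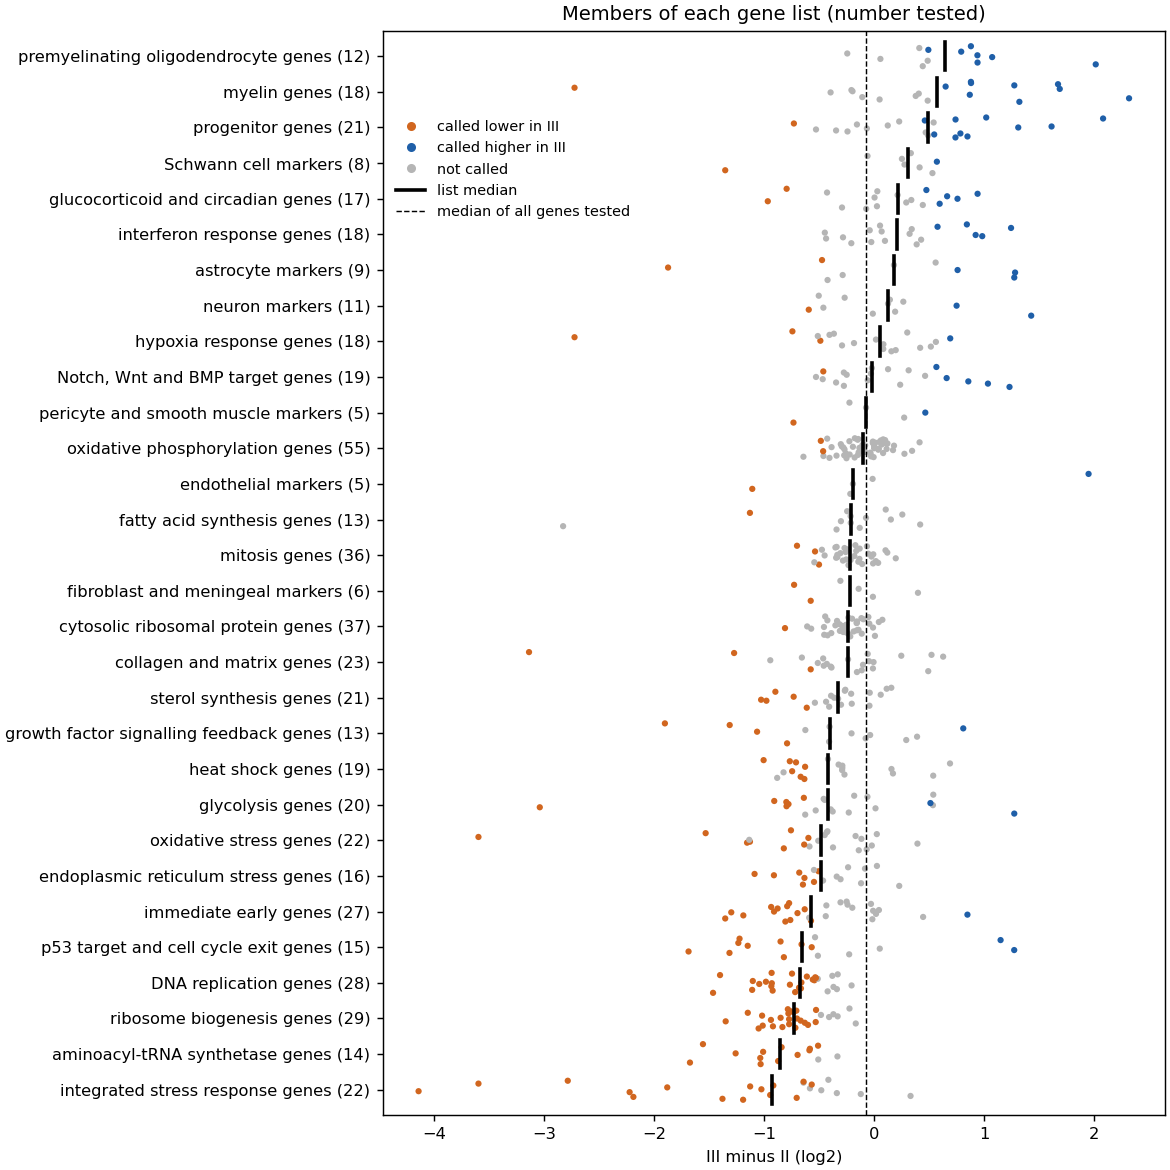
Each point is the III minus II difference (log2) of a tested member of a list (number tested in brackets), orange where called lower and blue where called higher in III; black bars are list medians and the dashed line is the median of all genes. List medians run from -0.93 for integrated stress response genes to 0.64 for premyelinating genes, beside -0.07 over all genes.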

How the data were processed

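The deposited table holds the authors' scaled intensity of 35129 probes on 9 one-colour arrays. Per the labels' protocols, RNA was amplified and biotin-labelled and spiked synthetic mRNAs served for normalization. Background correction and scanner: not given in the sources used here. Of the probes, 16865 carry 1 gene symbol, 165 several and 18099 none, and 16836 matched RefSeq's GRCr8 gene table by Entrez identifier (1 symbol updated). Readings of -9999 were taken as missing, which removed 112 of 9023 genes with a mean over 0.5. Values under 0.25 were raised to 0.25 before log2, which touched 197 of the 8911 genes tested. Each gene was read by its brightest probe on average over the 9 arrays.

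The log2 values of all 9 arrays were fitted with set and population as additive terms (limma 3.58.1, lmFit and eBayes, two-sided, R 4.3.3), with 4 residual and 6.98 prior degrees of freedom. A gene was called when its p, adjusted over the 8911 genes by Benjamini-Hochberg, was under 0.05. Exact sign-flip tests over 3 pairs cannot go below 0.25 and were not used. The set numerals were treated as shared replicate numbers. Between arrays of different populations, deviations from population means correlated at 0.279 to 0.6 for the same numeral and -0.518 to 0.0421 for others. The 3 deviations of a population cancel out for each gene, so these ranges are not independent of each other. Precision is limited by there being 3 arrays per set.

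The comparison and the 34 gene lists (876 genes, 577 tested) were chosen with earlier results of these data known. Named genes are the 15 called ones per direction with the largest difference and no overlap between sets, leaving out provisional symbols, from each list the 3 with the lowest p (printed in part), the refilin and filamin genes and the genes behind the sort antigens. Other list members given as examples were chosen after their values were seen. Where another probe of a described gene over the minimum had the opposite sign or lay over 0.4 away (log2), its value is given beside the gene's. For genes that would fail the filter without set II or without set III, the filter favours a higher reading in that set. Those named are given as values, and such genes stay in the list counts. Of 450 other probes of called genes, 399 (88.7%) had the same sign.

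In simulated data with 8911 genes, this test of III minus II recovered 67% of genes changed 2-fold and 3% of those changed 1.41-fold, with 6 unchanged genes called. The simulation changed a far smaller share of genes than the 19.8% called in the data, with noise drawn independently for each gene. Fewer changed genes make the adjusted threshold stricter, so these recovered shares cannot be carried over to the data. Alternatives were other filters, floors, normalizations, probe rules, variance estimates and tests, and leaving out arrays. Figures were drawn with matplotlib 3.10.9.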

Additional observations from a re-analysis of the deposited data

How the results depend on the processing

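None of the 1760 genes called in III minus II changed sign under the settings that give a gene 1 value, while 399 of 450 other probes of called genes had the gene's sign. The counts higher and lower in III, 764 and 996, became 425 and 579 with all genes kept, 107 and 87 with limma's treat at a log2 limit of 0.5, and 200 and 219 with the plain t statistic of the model, and 1354 probes were higher and 1241 lower when each of 21170 probes was tested by itself. The excess of lower calls depended on scaling: with array medians set equal they were 888 and 850, and with quantile normalization 823 and 932. Without the replicate block that population supplies, they were 518 and 693. Leaving out 1 array gave 382 to 775 higher and 371 to 1002 lower. The lowest counts, 382 and 371, came without array II of NG2. Without array III of NG2 they were 439 and 438, without III of NG2/A2B5 464 and 533, without III of O4 439 higher and without II of O4 479 higher. Leaving out a whole population gave 282 to 459 higher and 235 to 603 lower.

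For III minus I (105 and 119), the counts were 0 and 0 with all genes kept (1031 and 771 at an unadjusted p under 0.05), 218 and 213 over a minimum of 1, 54 higher with the floor at the smallest positive value, 18 and 41 without the replicate block, 62 and 78 for the mean of a gene's probes, 34 and 60 over all probes, 272 and 258 with trend and robust limma estimates, 2 and 17 with treat, and 0 and 0 with the plain t statistic (753 and 563 unadjusted). For II minus I (381 and 361), they were 94 and 84 with all genes kept, 201 and 183 without the replicate block, 700 higher with trend and robust estimates, 26 and 50 with treat and 0 and 0 with the plain t statistic (1216 and 645 unadjusted). Leaving out arrays (1 array or a whole population) gave 2 to 100 higher and 23 to 117 lower for III minus I, and 82 to 367 and 144 to 349 for II minus I. Genes with up to 3 missing values were kept in an alternative chosen after seeing the data, which stayed within 1.5 times of each count. Over the alternatives, list medians moved by more than the SD of the 3 population medians in 69 cases and by less in 679.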

Other observations

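Probes without a gene symbol were split differently from those with one. Tested each by itself over all probes, 725 of 10012 probes without a symbol were higher in III and 390 lower, whereas of 11158 probes with a symbol 629 were higher and 851 lower. The difference between these splits was not tested.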
